A study of Mus musculus with 12 samples.

Results

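The 44 genes described here encode the machinery of mitosis and of the spindle. They were chosen by name, for their known roles, from the 35976 gene names in each of 12 RNA-seq expression tables. Earlier results of these data were known when they were chosen. All 44 were in the tables, and all 44 passed the filter on low values that left 13316 genes for testing. They were sorted into 9 role classes, from the cyclins that start mitosis to the proteins that complete cell division.

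The 12 libraries came from mouse embryonic stem cells of the A2lox.cre line, differentiated in culture. RUNX1-EVI1, a leukaemia fusion of the blood transcription factor RUNX1 with the protein EVI1 encoded by Mecom, had been targeted into these cells under a doxycycline-inducible control. Every group carried the construct, and the stem cells had been expanded from individual colonies after drug selection. FLK1+ cells were isolated from embryoid bodies after 3.25 days, and 1 day into further culture they received either no doxycycline (NoDox) or 0.5 µg/ml doxycycline (PlusDox) for 18 hours. The sorted populations were HE1 and HE2, for hemogenic endothelium 1 and 2, and HP, for hematopoietic progenitors, with 2 biological replicates for each of the 6 combinations. Hemogenic endothelium is the endothelium that gives rise to blood cells. The labels do not say how many colonies the replicates represent, nor how the sorts were gated. No group received doxycycline without carrying the construct, so effects of the drug and of the fusion protein cannot be told apart.

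A dividing cell enters mitosis when CDK1 is activated by cyclins A and B, a step opened by the CDC25 phosphatases. Aurora and polo-like kinases then build the spindle, kinetochores attach chromosomes to it, and the spindle checkpoint holds back the anaphase-promoting complex with its activator CDC20 until attachment is complete. Transcripts of most of these genes accumulate as cells approach mitosis and are low in resting cells, which is why they are widely used as markers of proliferation. In bulk RNA, fewer cells in mitosis and less RNA per mitotic cell cannot be told apart.

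Promoters of many such genes share the sequence TTTGAA, known as the cell cycle genes homology region and bound by complexes that repress or activate mitotic genes, and CCAAT, the box bound by NF-Y. RefSeq promoter windows of build GRCm38.p6, each with 250 bases before and 50 bases after the annotated start, were used for 36 of the 44 genes, which had 39 windows in all. TTTGAA on either strand was found in 30 of these 39 windows (27 genes), against 17.9% of all 32851 windows in the table. CCAAT on either strand was also found in 30 of the 39 (27 genes), against 37.4% of all windows. Both motifs were in 26 windows (23 genes), against 6.95%. Counted by gene, 75% of the 36 members held TTTGAA, 75% CCAAT and 63.9% both. Of the 9683 tested genes with a window, 14.2% held TTTGAA, 42.8% CCAAT and 5.98% both. Matches of the 2 motifs could overlap, as they do in Cdca8. The windows of 5 genes (Birc5, Nuf2, Mad2l1, Nusap1 and Pttg1) held neither motif. A match is a description of the letters, and the lack of one says only that these letters were not in this window.

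The windows below belong to the 4 genes called lower with doxycycline in HE2. They are written along the gene's strand from 5′ to 3′, with each TTTGAA or CCAAT match, or its reverse complement, in capitals. They lie at chr2:172370521-172370820 on the minus strand for Aurka, chr4:124936868-124937167 on the minus strand for Cdca8, chr11:117848987-117849286 on the plus strand for Birc5 and chr6:66534971-66535270 on the plus strand for Mad2l1.
Aurka: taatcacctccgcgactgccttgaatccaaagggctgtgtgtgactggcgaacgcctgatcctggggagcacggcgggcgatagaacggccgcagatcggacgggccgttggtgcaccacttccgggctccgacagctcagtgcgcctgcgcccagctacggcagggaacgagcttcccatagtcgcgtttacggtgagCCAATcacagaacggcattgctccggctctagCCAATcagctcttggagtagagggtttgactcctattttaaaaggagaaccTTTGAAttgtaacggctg
Cdca8: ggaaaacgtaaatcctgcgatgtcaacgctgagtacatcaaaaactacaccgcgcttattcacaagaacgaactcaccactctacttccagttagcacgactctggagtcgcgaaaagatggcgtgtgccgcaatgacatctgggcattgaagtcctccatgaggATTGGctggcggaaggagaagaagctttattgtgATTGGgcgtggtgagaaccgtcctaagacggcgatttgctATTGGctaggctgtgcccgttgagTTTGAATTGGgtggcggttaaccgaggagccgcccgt
Birc5: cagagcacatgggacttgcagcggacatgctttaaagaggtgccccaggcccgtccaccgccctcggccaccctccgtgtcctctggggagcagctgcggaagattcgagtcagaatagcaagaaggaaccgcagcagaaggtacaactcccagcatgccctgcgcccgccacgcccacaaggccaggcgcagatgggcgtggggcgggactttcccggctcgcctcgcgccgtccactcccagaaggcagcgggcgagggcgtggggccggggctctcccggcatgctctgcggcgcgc
Mad2l1: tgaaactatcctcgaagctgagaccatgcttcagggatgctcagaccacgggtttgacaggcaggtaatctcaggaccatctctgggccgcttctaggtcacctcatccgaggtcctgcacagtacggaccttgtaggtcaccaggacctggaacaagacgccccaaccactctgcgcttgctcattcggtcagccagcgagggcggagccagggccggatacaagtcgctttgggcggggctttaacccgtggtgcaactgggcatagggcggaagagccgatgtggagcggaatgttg
The Aurka window held 1 TTTGAA and 2 CCAAT matches, and the Cdca8 window held 1 TTTGAA and 4 CCAAT matches, whereas the other two held none. The 4 genes called lower in HE2 thus did not all hold these exact letters. These 4 are the genes past the cut-off, while 43 of the 44 changes in HE2 were below 0. With TTTAAA counted beside TTTGAA, 33 of the 39 windows (30 genes) held a match, against 27.6% of all 32851 windows. The Birc5 window holds TTTAAA, and that of Mad2l1 does not. A link between motif and response was not tested. Over all 39 windows TTTGAA matches lay mostly around and after the start, with 28 of 39 matches beginning between bases -30 and 50. CCAAT matches lay mostly before it, with 49 of 67 beginning between bases -130 and -1.

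**Figure D1:**
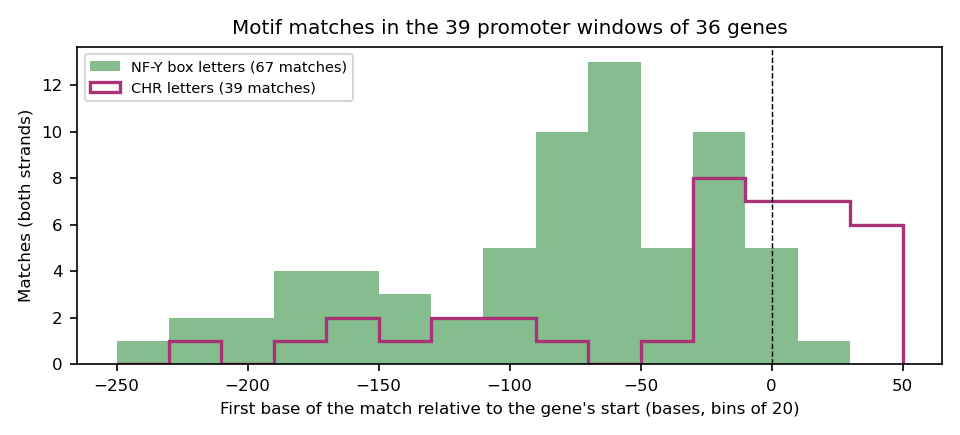
Histogram of the first base of each match to the 2 motifs in the 39 promoter windows of 36 mitosis and spindle genes, on both strands, against its distance from the annotated start (dashed line, bins of 20 bases). The 67 CCAAT matches (NF-Y box, filled) lay mostly before the start, and the 39 TTTGAA matches (CHR, cell cycle genes homology region, outlined) mostly around and after it.

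Values are FPKM, which divide fragments by both the length of the transcript and the library's mapped total, so levels can be compared between genes. Absolute depth is not given by the tables. Steps between low values gave depths relative to the median library of 0.58 to 2.437, lowest in the replicate 2 library of PlusDox HE1. In 5 libraries (replicate 1 of NoDox HE1 and replicate 2 of PlusDox HE1, PlusDox HE2, NoDox HP and PlusDox HP) Lars2, which encodes a mitochondrial aminoacyl-tRNA synthetase, stood at 10224 FPKM or more, against 224 or less in the other 7. The 8 endothelial markers were all at 1 FPKM or more in each HE1 and HE2 group, but also in PlusDox HP, with 7 in NoDox HP. All 8 haematopoietic markers were so in each HP group, but also in PlusDox HE2, with 6 in NoDox HE2. Ptprc was listed at 0 in both NoDox HE1 libraries. Endothelial markers summed to 782.5 FPKM or more in HE1 and HE2 libraries and 329 or less in HP. Haematopoietic markers summed to 421 or more in HP libraries and 331.1 or less in HE1 and HE2. The Hprt gene, the locus into which A2lox cassettes are placed, rose in all 3 populations, from 1.45 and 2.11 to 45.1 and 19.4 FPKM in HE1 (limma adjusted p = 0.00243 in HE1, 0.00127 in HE2 and 0.00305 in HP). Mecom reads, which the fusion transcript can share, rose in HP from 0.194 and 0.205 to 5.18 and 5.51 FPKM (limma adjusted p = 0.0058). Mecom was not called in HE1, at 17.0 and 28.3 FPKM in NoDox and 23.0 and 18.1 in PlusDox, or in HE2, with changes of -0.10 and 0.98 (limma adjusted p = 0.986 and 0.0923), and Runx1 was called in none of the populations.

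The mean log2(FPKM + 1) of the 44 genes was 4.87 and 4.78 in NoDox HE1, 4.73 and 4.25 in PlusDox HE1, 5.30 and 5.18 in NoDox HE2, 4.85 and 4.62 in PlusDox HE2, 5.68 and 5.48 in NoDox HP, and 5.55 and 5.29 in PlusDox HP. The group means were thus lowest in HE1 and highest in HP in both treatment states. With doxycycline HE1 and HE2 overlapped, replicate 1 of PlusDox HE1 lying above replicate 2 of PlusDox HE2, and without replicate 2 of PlusDox HE1 the median change of the 44 from HE1 to HE2 was -0.00058. In each population both PlusDox libraries lay below the higher NoDox library. The groups did not overlap in HE1 and HE2 and overlapped in HP. Together the 44 genes took from 0.191% of all FPKM (PlusDox HE1 replicate 2) to 0.485% (NoDox HP replicate 1). The replicate 2 library of PlusDox HE1 was the lowest of the 12 for 38 genes. The replicate 1 library of NoDox HP was the highest for 34. The share of all genes at these extremes was not counted. In PlusDox HE1, 82.3% of all tested genes were lower in replicate 2 than in replicate 1 (median -0.25), as were all 44 members (median -0.45). In NoDox HP the same held for 76.5% of all tested genes (median -0.19) and 42 members (median -0.18). The most abundant member was Top2a, the topoisomerase that untangles sister chromatids, at 72.9 to 247 FPKM. At the other end stood Cdc25b at 2.41 to 25.1 FPKM.

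**Figure D2:**
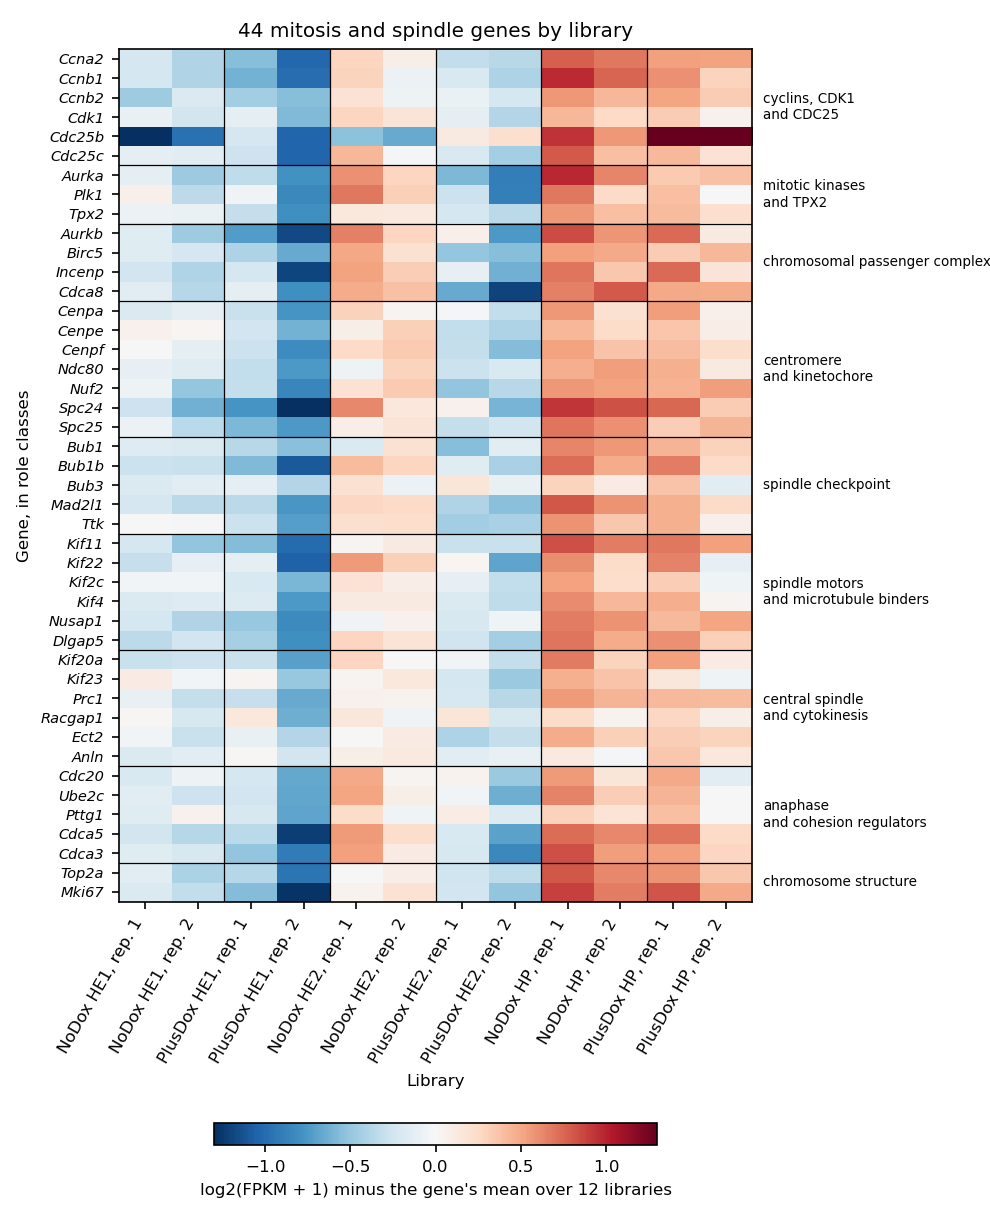
Each cell shows the log2(FPKM + 1) of a gene in a library minus that gene's mean over the 12 libraries, with genes in rows grouped by role class and libraries in columns grouped by population and treatment. The HP columns are highest for most genes, and Cdc25b departs from the others by being higher with doxycycline. The replicate 2 library of PlusDox HE1 is the lowest for 38 of 44. In this library 82.3% of all tested genes were lower than in replicate 1.

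A small set of these genes was called lower with doxycycline in HE2, and no member was called in HE1 or HP. Differences were tested with limma on log2(FPKM + 1), a gene being called at a Benjamini-Hochberg adjusted p below 0.05 over all 13316 genes. In HE2, 4 of the 44 were called lower and none higher, where 2.24% of all tested genes were called lower, 3.82% higher and 6.06% in either direction. The 4 were Aurka, Cdca8, Birc5 and Mad2l1. Among all genes 509 were called higher and 298 lower, and 602 and 814 after rescaling the libraries without 3 abundant features, a setting in which 13 members were lower. The median log2 change of the 44 in HE2 was -0.48, against -0.05 for all tested genes, and 43 of 44 changes were below 0, against 54.9% of all genes. Both PlusDox HE2 libraries were below both NoDox HE2 libraries for 38 of the 44, against 28% of all genes.

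In HE1, none of the 44 was called, where 1.37% of all genes were called by limma, and 11 had an unadjusted p below 0.05, against 9.59% of all genes. The median change in HE1 was -0.36 (all genes -0.07), 42 of 44 changes were below 0 (61.6% of all genes), and the groups did not overlap for 24 genes, all lower, against 22% of all genes. Without replicate 1 or 2 of PlusDox HE1 the HE1 median was -0.56 or -0.13, and leaving out each library the calls over all genes in HE1 ran from 2 to 191. In HP, none was called, where 0.834% of all genes were, and 1 had an unadjusted p below 0.05, against 9.39% of all genes. The HP median was -0.17 (all genes -0.0028), 41 of 44 changes were below 0 (50.5% of all genes), and 15 genes were lower without overlap, against 13.2% of all genes. Without replicate 1 or 2 of PlusDox HP the HP median was -0.33 or -0.047, and the calls over all genes in HP ran from 10 to 124. The change was below 0 in all 3 populations for 41 of the 44, against 28.6% of all tested genes.

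Averaged over the 3 populations, 12 of the 44 were lower (3.72% of all genes called lower) and 1 was higher (6.91% of all genes called higher). The 12 were Aurka, Cdca8, Birc5, Mad2l1, Ccna2, Ccnb1, Cenpe, Cenpf, Spc25, Bub1b, Ttk and Cdca3, and the gene that rose was Cdc25b. The median of the 44 was -0.36, against -0.05 for all tested genes. Without the replicate 1 library of NoDox HE2 or the replicate 2 library of PlusDox HE2, the HE2 count was 0, and Mad2l1 was called in 4 of the 12 fits that each left out 1 library. With only the HE2 libraries fitted, Birc5 and Mad2l1 lost their HE2 calls (limma adjusted p = 0.0784 and 0.104). The averaged count of 13 fell to 1 without replicate 1 of NoDox HE1, 7 without replicate 2 of NoDox HE1, 3 without replicate 1 of NoDox HE2, 4 and 6 without replicates 1 and 2 of NoDox HP, 4 without replicate 2 of PlusDox HE1 or of PlusDox HE2, and 3 without replicate 2 of PlusDox HP, and it was 26 without replicate 1 of PlusDox HE1. With no filter on low values, 5 were called in the average.

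**Figure D3:**
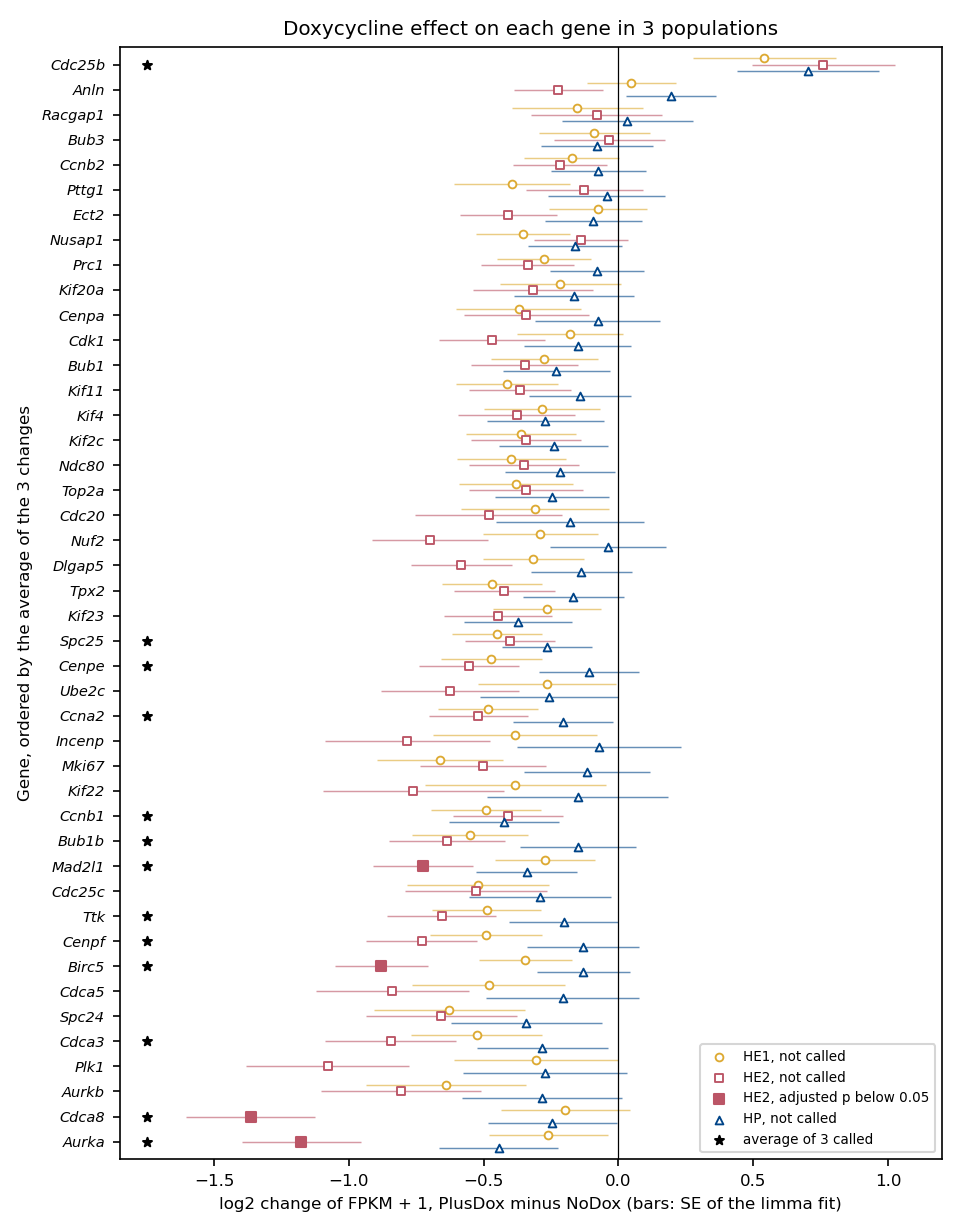
Log2 change of FPKM + 1 between PlusDox and NoDox for each of the 44 genes in HE1 (circles), HE2 (squares) and HP (triangles), with the standard error of the limma fit as bars, ordered by the average of the 3 changes. Filled squares mark the 4 genes called in HE2 and stars the 13 genes called in the average, of which Cdc25b at the top is the one above 0.

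Among the kinases that drive spindle assembly, Aurka, which matures centrosomes and builds the spindle poles, measured 27.8 and 21.7 FPKM in NoDox and 24.0 and 17.2 in PlusDox HE1, 46.5 and 37.1 against 20.0 and 15.9 in HE2, and 61.0 and 47.8 against 38.9 and 40.1 in HP. Its groups overlapped in HE1, and both PlusDox libraries lay below both NoDox libraries in HE2 and HP. The log2 change was -0.26 ± 0.22 in HE1, -1.18 ± 0.22 in HE2 (a fold of 0.442, limma adjusted p = 0.0105) and -0.44 ± 0.22 in HP. Averaged over the populations, Aurka fell by 0.63 ± 0.13 on the log2 scale (limma adjusted p = 0.00951), the furthest of the 44. The transcript overlaps Cstf1 by 242 bases in the annotation, and no source used here gives the strand setting of the counting. The polo-like kinase Plk1 had a change of -1.08 ± 0.30 in HE2 (limma adjusted p = 0.0572) and Tpx2, the activator of AURKA on spindle microtubules, -0.42 ± 0.19 (limma adjusted p = 0.207). Neither was called in any population.

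The chromosomal passenger complex, which corrects faulty attachments and guides the last steps of division, had 2 of its 4 genes called in HE2. Cdca8, the borealin subunit at chr4:124918465-124936917, measured 32.3 and 27.7 FPKM in NoDox and 33.2 and 20.3 in PlusDox HE1, 50.8 and 47.0 against 22.4 and 15.0 in HE2, and 57.4 and 63.3 against 50.9 and 50.5 in HP. In HE2 its PlusDox libraries stood well below the NoDox libraries, in HP they were lower by a smaller margin, and in HE1 the groups overlapped. Its change in HE2 was -1.36 ± 0.24 (a fold of 0.389, limma adjusted p = 0.00667), the largest of the 44, against -0.20 ± 0.24 in HE1 and -0.25 ± 0.24 in HP. Birc5, encoding survivin at chr11:117849237-117855743, measured 78.3 and 75.1 FPKM in NoDox and 65.7 and 55.0 in PlusDox HE1, 125 and 100.4 against 61.5 and 59.1 in HE2, and 127 and 123 against 109.9 and 118 in HP. Its libraries separated by treatment in all 3 populations, widely in HE2 and narrowly in HP. The change of Birc5 was -0.88 ± 0.17 in HE2 (limma adjusted p = 0.0124), -0.35 ± 0.17 in HE1 and -0.13 ± 0.17 in HP. The catalytic subunit Aurkb and the scaffold Incenp had changes of -0.81 and -0.78 in HE2 (limma adjusted p = 0.131 and 0.153). On average over the populations Cdca8 fell by 0.60 ± 0.14 and Birc5 by 0.45 ± 0.10 on the log2 scale (limma adjusted p = 0.0173 and 0.0141).

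The spindle checkpoint, which delays anaphase until every kinetochore is attached, had Mad2l1 called in HE2 and 3 of its 5 genes called in the average. Mad2l1, which encodes the MAD2 inhibitor of CDC20 at chr6:66535221-66541107, measured 25.1 and 22.8 FPKM in NoDox and 22.7 and 16.9 in PlusDox HE1, 35.5 and 35.0 against 22.1 and 19.8 in HE2, and 52.2 and 44.4 against 40.8 and 35.0 in HP. Both PlusDox libraries were below both NoDox libraries in each population, by a small margin in HE1. Its change was -0.73 ± 0.19 in HE2 (limma adjusted p = 0.0414, and 0.0672 with no filter on low values) and -0.45 ± 0.11 in the average (limma adjusted p = 0.0219). Bub1b, which encodes the checkpoint kinase-like protein BUBR1, measured 30.3 and 30.1 FPKM in NoDox and 24.5 and 16.8 in PlusDox HE1, 49.6 and 45.0 against 33.0 and 27.3 in HE2, and 61.8 and 52.0 against 59.0 and 44.1 in HP. Ttk, the MPS1 kinase that starts checkpoint signalling, measured 13.4 and 13.2 FPKM in NoDox and 10.8 and 7.76 in PlusDox HE1, 15.6 and 15.9 against 9.51 and 9.75 in HE2, and 20.7 and 17.4 against 18.8 and 14.1 in HP. For both genes the groups separated in HE1 and HE2 and overlapped in HP. Their averaged changes were -0.45 ± 0.12 for Bub1b and -0.45 ± 0.12 for Ttk (limma adjusted p = 0.04 and 0.0303). Bub3, the WD-repeat partner of BUB1 and BUBR1, had the smallest averaged change of the class, -0.07 ± 0.12, and its groups overlapped in every population.

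Among the cyclins, CDK1 and the CDC25 phosphatases, 2 genes fell and 1 rose in the average. Ccna2, the cyclin of S phase and early mitosis, measured 50.3 and 44.5 FPKM in NoDox and 39.6 and 28.4 in PlusDox HE1, 71.5 and 61.9 against 46.8 and 45.4 in HE2, and 101 and 95.3 against 85.2 and 85.1 in HP. Ccnb1, the cyclin whose destruction ends mitosis, measured 51.5 and 45.9 FPKM in NoDox and 39.1 and 30.1 in PlusDox HE1, 74.4 and 57.4 against 52.6 and 45.5 in HE2, and 119.5 and 103 against 91.8 and 74.1 in HP. For both, the PlusDox libraries lay below the NoDox libraries in all 3 populations without overlap. The averaged change was -0.40 ± 0.11 for Ccna2 and -0.44 ± 0.12 for Ccnb1 (limma adjusted p = 0.0334 and 0.0342). Ccna2 shares 863 bases with Exosc9 in the annotation. Cdk1 itself had an averaged change of -0.27 ± 0.11 and Ccnb2 one of -0.15 ± 0.10, neither called.

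Cdc25b, which encodes a phosphatase that activates CDK1 at mitotic entry and lies at chr2:131186436-131198511, went the other way. It measured 2.41 and 3.44 FPKM in NoDox and 6.51 and 3.25 in PlusDox HE1, 5.03 and 4.53 against 8.47 and 9.08 in HE2, and 15.8 and 11.9 against 21.0 and 25.1 in HP. The groups overlapped in HE1, where the replicate 2 library of PlusDox lay near the NoDox libraries, and PlusDox was higher without overlap in HE2 and HP. The changes were 0.54 ± 0.27 in HE1, 0.76 ± 0.27 in HE2 and 0.70 ± 0.27 in HP, none called alone, and 0.67 ± 0.15 in the average (limma adjusted p = 0.0173). The averaged call was lost with no filter on low values (limma adjusted p = 0.0606) and without replicate 1 of NoDox HE1 (0.0653), replicate 2 of NoDox HP (0.0524) or replicate 2 of PlusDox HP (0.0507). It was the only one of the 44 with a change above 0 in all 3 populations, a direction shared by 18.6% of all tested genes. Cdc25c, the other CDC25 gene listed, had an averaged change of -0.45 ± 0.15.

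**Figure D4:**
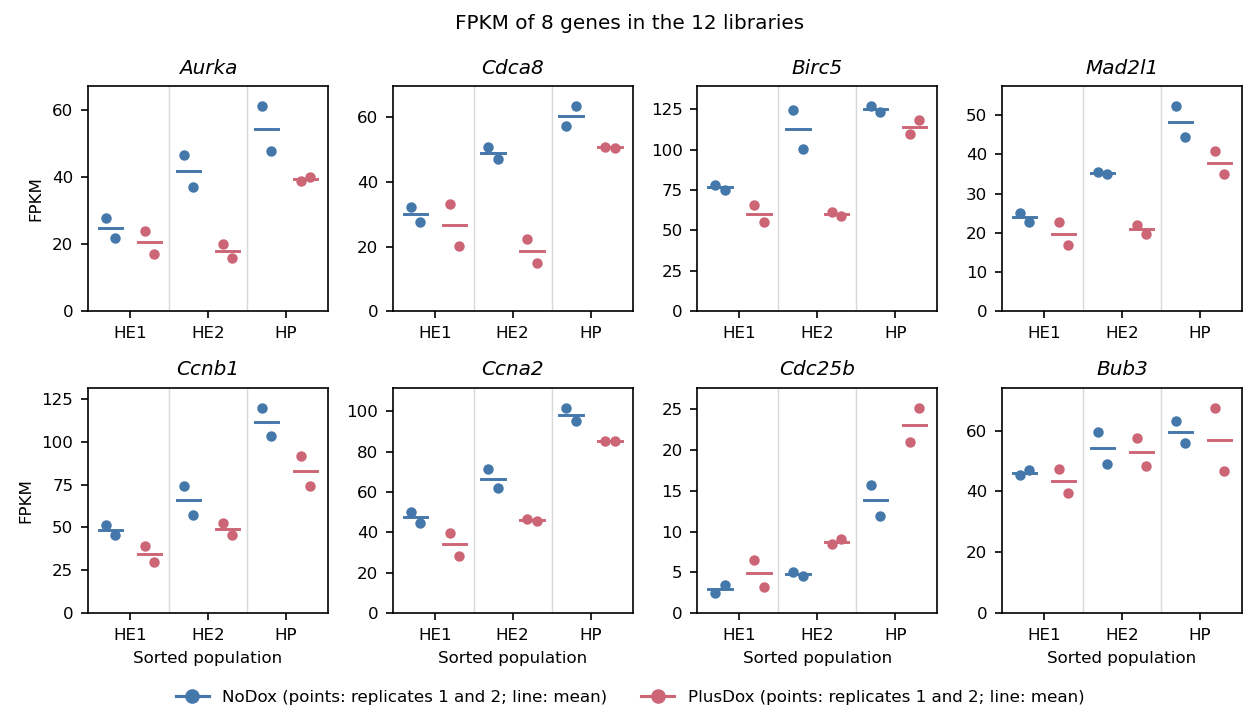
FPKM in each of the 12 libraries for 8 genes, with points for replicates 1 and 2, horizontal lines for group means, blue for NoDox and red for PlusDox, and each vertical axis starting at 0. Aurka, Cdca8, Birc5 and Mad2l1 separate most in HE2, Ccna2 and Ccnb1 separate in all 3 populations, Cdc25b is higher with doxycycline, and Bub3 overlaps throughout.

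At the centromere and kinetochore, all 7 genes had changes below 0 in every population, and 3 were called in the average. Cenpe, the kinetochore motor that moves chromosomes to the spindle equator, measured 25.0 and 24.5 FPKM in NoDox and 20.1 and 15.3 in PlusDox HE1, 25.4 and 29.9 against 19.0 and 17.9 in HE2, and 32.6 and 28.5 against 31.0 and 25.6 in HP. Cenpf, a large kinetochore protein that accumulates before mitosis, measured 11.8 and 10.6 FPKM in NoDox and 9.43 and 6.20 in PlusDox HE1, 14.1 and 15.1 against 9.25 and 7.59 in HE2, and 17.2 and 15.4 against 15.8 and 13.8 in HP. In both genes the groups separated in HE1 and HE2 and overlapped in HP. Spc25, a subunit of the NDC80 complex that grips microtubules, measured 23.9 and 19.6 FPKM in NoDox and 16.6 and 14.6 in PlusDox HE1, 27.0 and 28.5 against 20.2 and 21.4 in HE2, and 41.6 and 38.8 against 31.8 and 34.8 in HP, and it separated in all 3 populations. Averaged changes were -0.38 ± 0.11 for Cenpe, -0.45 ± 0.12 for Cenpf and -0.37 ± 0.10 for Spc25 (limma adjusted p = 0.0438, 0.0329 and 0.0306). Spc24, the partner of SPC25, measured 16.3 and 12.6 FPKM in NoDox and 11.2 and 7.02 in PlusDox HE1, 31.1 and 22.0 against 20.6 and 12.7 in HE2, and 38.6 and 36.1 against 33.9 and 25.2 in HP. The Spc24 libraries also separated in each population, but they varied more between replicates, and its averaged change of -0.54 ± 0.16 was not called (limma adjusted p = 0.0537). The other members of the class, Cenpa, Ndc80 and Nuf2, had averaged changes from -0.34 (Nuf2) to -0.26 (Cenpa).

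The anaphase and cohesion regulators had 1 of 5 genes called in the average. This was Cdca3, which promotes the destruction of the WEE1 kinase, and it measured 35.3 and 34.0 FPKM in NoDox and 27.4 and 20.6 in PlusDox HE1, 57.7 and 42.8 against 34.2 and 21.7 in HE2, and 71.4 and 58.0 against 57.6 and 48.3 in HP. Its libraries separated by treatment in each population. The averaged change of Cdca3 was -0.55 ± 0.14 (limma adjusted p = 0.0283). Cdc20 and Ube2c, the activator and the ubiquitin-conjugating enzyme of the anaphase-promoting complex, had averaged changes of -0.32 ± 0.16 and -0.38 ± 0.15. Pttg1, which encodes securin, had one of -0.19 ± 0.13, and Cdca5, which encodes the cohesion protector sororin, one of -0.51 ± 0.16, none of them called.

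No gene was called with doxycycline among the spindle motors and microtubule binders, the central spindle and cytokinesis genes, or the chromosome structure genes. In the first of these classes Kif22, a chromosome-arm motor, measured 24.5 and 28.3 FPKM in NoDox and 27.9 and 14.2 in PlusDox HE1, 45.1 and 38.1 against 31.1 and 18.6 in HE2, and 47.0 and 36.1 against 48.4 and 28.3 in HP. Its groups overlapped in HE1 and HP and separated in HE2, and its averaged change of -0.43 ± 0.19 carried one of the larger standard errors of the 44. Kif11, the motor that pushes spindle poles apart, measured 25.5 and 20.7 FPKM in NoDox and 20.0 and 14.5 in PlusDox HE1, 30.8 and 32.6 against 24.4 and 24.3 in HE2, and 54.3 and 48.2 against 48.8 and 43.8 in HP. It separated in HE1 and HE2 and overlapped in HP, with an averaged change of -0.31 ± 0.11. In the central spindle class Kif23, a motor of the centralspindlin complex, measured 24.2 and 21.9 FPKM in NoDox and 22.9 and 15.6 in PlusDox HE1, 23.0 and 24.7 against 18.9 and 15.7 in HE2, and 31.1 and 29.3 against 24.9 and 21.4 in HP. Kif23 separated in HE2 and HP and overlapped in HE1, with an averaged change of -0.36 ± 0.12. Racgap1, its centralspindlin partner, had -0.07 ± 0.14, and Anln, which encodes the contractile-ring protein anillin, 0.01 ± 0.10, close to no change. Mki67, which encodes the proliferation marker Ki-67 that coats mitotic chromosomes, measured 60.4 and 55.0 FPKM in NoDox and 46.5 and 27.9 in PlusDox HE1, 71.5 and 78.8 against 57.7 and 48.1 in HE2, and 128 and 109.8 against 123 and 97.6 in HP. Its groups separated in HE1 and HE2 and overlapped in HP, with an averaged change of -0.43 ± 0.13 (limma adjusted p = 0.0656).

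Differences between the role classes were not tested, and 6 of the 9 had no gene called in HE2. Their median log2 changes in HE2 ran from -0.33 in the central spindle and cytokinesis class to -1.08 in the mitotic kinases and TPX2. The chromosomal passenger complex stood at -0.84. In HP the class medians lay between -0.09 (central spindle and cytokinesis) and -0.27 (kinases with TPX2). These medians cover 2 to 7 genes a class and are a description.

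**Figure D5:**
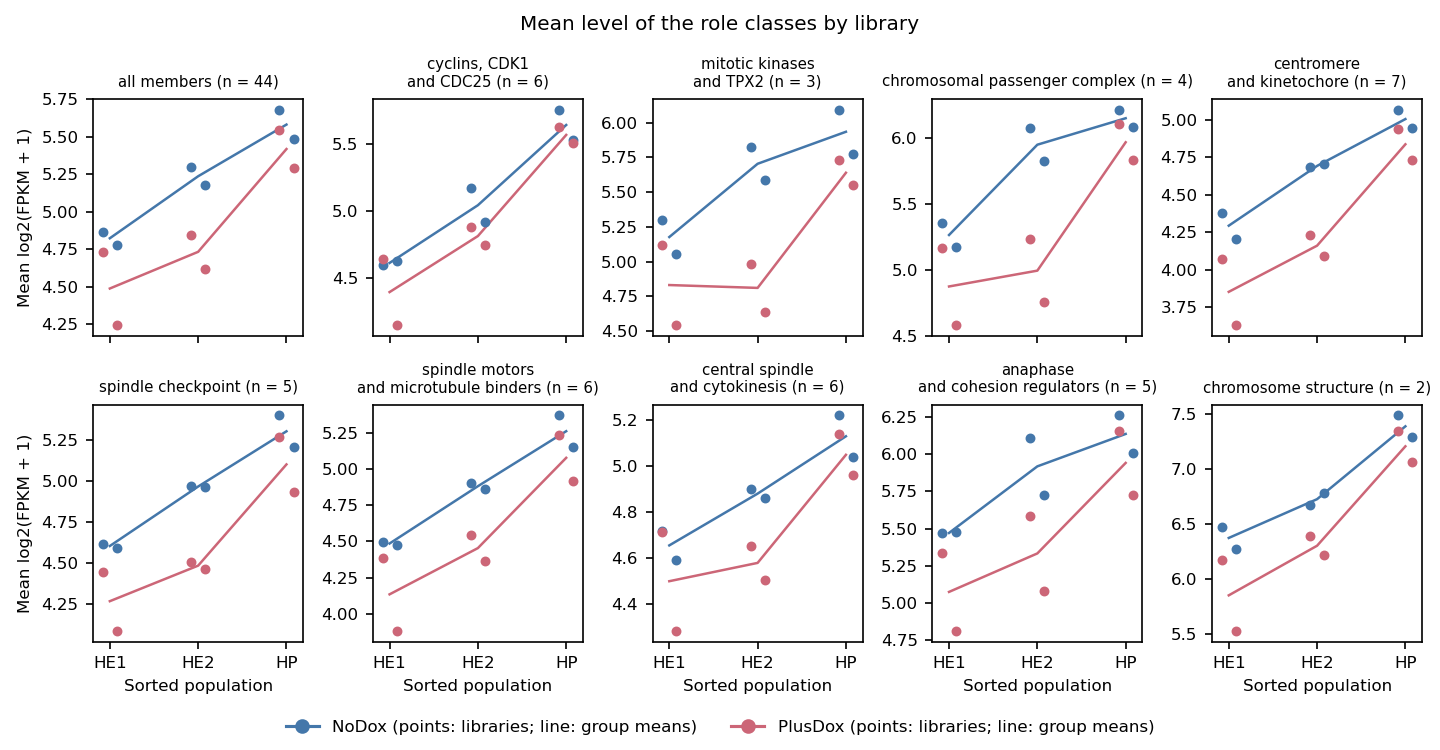
Mean log2(FPKM + 1) of all 44 genes and of the 9 role classes in each library (points) with lines through the group means, for HE1, HE2 and HP, in blue for NoDox and red for PlusDox, with a separate vertical scale in each panel that does not start at 0. All 10 panels rise from HE1 to HP, and the gap between NoDox and PlusDox at HE2 is widest for the kinases and the chromosomal passenger complex.

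Whether the effect of doxycycline differed between populations was tested as an interaction. No member was called for HE2 against HE1, where 0.0451% of all genes were called, for HP against HE2 (0.015%) or for HP against HE1 (0.0375%). Unadjusted p below 0.05 was found for 3, 3 and 0 of the 44, against 6.7%, 6.57% and 6.53% of all genes. The 3 in the first 2 tests were the same genes, Cdca8, Aurka and Birc5, and those tests share the HE2 libraries. The effect on Cdca8 was -1.17 ± 0.34 in HE2 relative to HE1 and 1.12 ± 0.34 in HP relative to HE2, with limma adjusted p = 0.391 and 0.459. Of the 3 populations, Aurka, Cdca8, Birc5 and Mad2l1 were called in HE2 alone, but the tests of a difference between populations called none of them.

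The step from HE1 to HE2 was described in each treatment state. Without doxycycline all 44 genes had a mean change above 0, with a median of 0.39 against 0.16 for all tested genes, but none was called by limma, where 10.1% of all genes were called and 14 members had an unadjusted p below 0.05 (27.9% of all genes). Of all genes, 34.3% had a change below 0. Both HE2 libraries were above both HE1 libraries for 40 of the 44, against 45.6% of all genes. With doxycycline the median was 0.26 (all genes 0.17), none was called (8.59% of all genes called, 9 members at an unadjusted p below 0.05 against 24.9% of all genes), and 14 separated upwards, against 37.9% of all genes. Scaling bears on this step. After rescaling the libraries without Lars2, Mir6236 and LOC101056014 the median of all genes moved from 0.16 to -0.02 and that of the members from 0.39 to 0.16 in NoDox, with 36 of 44 above 0. In PlusDox the median of all genes moved from 0.17 to -0.01 and that of the members from 0.26 to 0.04, with 25 of 44 above 0.

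From HE2 to HP a number of these genes rose, more of them passing the test with doxycycline than without. The difference between the steps is the interaction of HP against HE2 above, in which no member was called. Without doxycycline 4 of 44 were called higher and none lower, where 5.31% of all genes were called higher and 16% in either direction. The 4 were Cdc25b (1.35 ± 0.27, limma adjusted p = 0.00399), Ccnb1 (0.76 ± 0.20, 0.0248), Kif11 (0.67 ± 0.19, 0.0295) and Nusap1, which bundles spindle microtubules (0.62 ± 0.17, 0.0297). The median of the 44 was 0.33, against -0.06 for all genes. With doxycycline 24 of 44 were called higher and none lower, where 5.96% of all genes were called higher and 16.9% in either direction, and the median was 0.70 against -0.0065. With doxycycline both HP libraries were above both HE2 libraries for 39 of the 44, against 23.5% of all genes. Without doxycycline this held for 29 of the 44, and the share of all genes is not given for that step.

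The 24 included 4 of 6 genes among the cyclins, CDK1 and CDC25, and 2 of 3 in the class of mitotic kinases and TPX2. They also included 2 of 4 genes of the chromosomal passenger complex, 3 of 7 at the kinetochore and 4 of 5 of the checkpoint. The rest were 3 of 6 motors and microtubule binders, 2 of 6 central spindle genes, 2 of 5 anaphase and cohesion regulators, and both chromosome structure genes. The largest changes were those of Cdca8 (1.42 ± 0.24, limma adjusted p = 0.00155), Cdc25b (1.29 ± 0.27, 0.00529) and Aurka (1.10 ± 0.22, 0.00459). For Cdca8 and Aurka the preceding step, from HE1 to HE2 in PlusDox, had changes of -0.48 and -0.18, neither called, while Cdc25b had changes above 0 at each step. The step in PlusDox and the effect of doxycycline in HE2 share the PlusDox HE2 libraries. Across treatment, the HP level of Cdca8 with doxycycline, 50.9 and 50.5 FPKM, remained under the 57.4 and 63.3 of NoDox HP.

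The NoDox count of 4 was 2 without replicate 1 of NoDox HE2, 1 without replicate 2 of NoDox HE2 or either NoDox HP library, and 7 without either PlusDox HE1 library. The PlusDox count of 24 was 15 without replicate 1 of PlusDox HE2, 8 without replicate 2 of PlusDox HE2 or replicate 1 of PlusDox HP, and 11 without replicate 2 of PlusDox HP.

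Another 5 lists of genes from the same processes were read beside the 44, against the 2.24% of all genes called lower in HE2 and 3.72% in the average. Of 16 genes of the anaphase-promoting complex, none was called in HE2, and 1 was lower in the average, Fbxo5, the inhibitor EMI1 of that complex (-0.43 ± 0.12, limma adjusted p = 0.0393). Of 20 genes of condensin, cohesin and separase, none was called in HE2 and 2 were lower in the average, Ncapg2 of condensin II (-0.48 ± 0.12, limma adjusted p = 0.0245) and Sgol1, which encodes the cohesion protector shugoshin (-0.46 ± 0.12, 0.0313). Of 42 other kinetochore and spindle genes, 1 was lower in HE2, the inner kinetochore gene Cenph, at 30.1 and 27.4 FPKM in NoDox and 15.8 and 12.4 in PlusDox (-0.98 ± 0.20, limma adjusted p = 0.0165), and 9 in the average. The counts of 1 of 42 in HE2 and of 1 of 16 in the average are near the shares over all genes.

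Of 26 regulators of mitotic entry and of mitotic transcription, 3 were lower in HE2 and 2 in the average. The 3 were Foxm1, the transcription factor that activates late cell cycle genes, at 22.5 and 17.3 FPKM in NoDox HE2 and 11.2 and 7.71 in PlusDox HE2 (-1.01 ± 0.26, limma adjusted p = 0.0399), the centrosome kinase Nek2 (-0.87 ± 0.22, 0.0418) and Wee1, the kinase that restrains CDK1 (-0.70 ± 0.18, 0.0447). Of 43 DNA replication genes, 5 were lower in HE2 and 15 in the average. The largest change was that of Rrm2, a subunit of the enzyme that makes deoxynucleotides, which measured 53.9 and 43.6 FPKM in NoDox and 43.3 and 29.3 in PlusDox HE1, 87.1 and 74.6 against 33.7 and 23.1 in HE2, and 96.7 and 81.8 against 71.4 and 64.2 in HP. Both PlusDox HE2 libraries of Rrm2 were far below the NoDox HE2 libraries, with a change of -1.50 ± 0.23 (limma adjusted p = 0.00383). No gene of the 5 lists was called in HE1 or HP, and none was called higher in HE2 or in the average. The median HE2 changes of the lists were -0.20, -0.33, -0.44, -0.47 and -0.56 in the order given, against -0.48 for the 44 and -0.05 for all tested genes.

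Other measures moved with treatment beside these changes. Summed FPKM of the 8 endothelial markers was 783 to 1145 in NoDox HE2 and 1170.1 to 1255 in PlusDox HE2, and 143 to 171 in NoDox HP against 228 to 329 in PlusDox HP. Summed FPKM of the 6 mesenchymal and smooth muscle markers was 125 to 208 in NoDox HE1 and 233 to 314 in PlusDox HE1, and that of the 5 erythroid markers 179.6 to 189.8 in NoDox HE1 against 112 to 141 in PlusDox HE1. Of the 6 mesenchymal and smooth muscle markers, however, 4 had a change below 0 in HE1 (median -0.11) and none was called. Of the 5 erythroid markers, 3 had a change below 0 in HE1 (median -0.14) and none was called. Their sum in HE2 overlapped, at 1442 to 1639 in NoDox and 1480 to 2155 in PlusDox. Of all tested genes, 3.82% were called higher and 2.24% lower in HE2, and 6.91% and 3.72% in the average. In HP 0.834% were called in either direction. With doxycycline, 3 of the 8 haematopoietic markers were called higher by limma in HE2, 1 in HP and 3 in the average. In HE2 and in the average, 5 of the 8 had changes below 0. Of the 8 endothelial markers, 1 was called higher in HE2, 1 in HP and 3 in the average. Among the 6 mesenchymal and smooth muscle markers and the 3 cardiac markers tested, 1 each was called lower in HE2 and in the average. The sum of the 4 cardiac markers listed was 3.97 to 5.79 FPKM in NoDox HE2 and 1.69 to 2.61 in PlusDox HE2. The part of these shifts in the results was not tested. The cardiac markers summed to at most 7.46 FPKM and the pluripotent markers to at most 1.72 in any library.

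The libraries high in Lars2 were spread unevenly over the groups. Within the libraries low in Lars2 the median change of the 44 was -0.12 in HE1 (1 library a group, 28 of 44 below 0), -0.38 in HE2 (1 PlusDox against 2 NoDox libraries, 40 of 44 below 0) and -0.13 in HP (1 library a group, 37 of 44 below 0). Within the libraries high in Lars2 it was -0.65 in HE1 (43 of 44 below 0) and -0.21 in HP (40 of 44 below 0), again with 1 library a group. No NoDox HE2 library was high in Lars2, so HE2 had no such value. In HE1 and HP the direction of the median was the same within both sets, and in HE1 it was larger among the libraries high in Lars2. A fit to the 7 libraries low in Lars2 alone has 1 residual degree of freedom and 1 library in every group but NoDox HE2. Its counts of calls are therefore not read. In this fit the median change of the 44 was -0.20 in the average (all genes -0.0050). For the steps from HE2 to HP without and with doxycycline it was 0.39 and 0.69 (all genes 0.048 and 0.052).

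By motif content, the median change in HE2 was -0.47 for the 23 genes with TTTGAA and CCAAT, -0.35 for the 4 with TTTGAA alone, -0.38 for the 4 with CCAAT alone and -0.70 for the 5 with neither. The medians of all 4 sets were below 0, and Cdc25b, with CCAAT but no TTTGAA in its window, was the one gene of the 44 above 0 in HE2. Other members share annotated bases with a protein-coding gene on either strand. Nusap1 does so with Oip5 (208 bases), and Kif20a with Cdc23 (4930) and Brd8 (240). The rest are Prc1 with Rccd1 (21669), Anln with 9530077C05Rik (653) and Cdc20 with Elovl1 (53). Their reads could have been mixed if strand was not used in counting. Several members also overlap non-coding or pseudogene entries, the longest stretch being that of Kif4 with the lncRNA Gm52438 (62763).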

How the data were processed

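RNA from sorted cells was sequenced paired-end from stranded total RNA libraries in a single pool, per the labels' protocols. Per the submitters' processing notes, the tools were Trimmomatic 0.32, HISAT2 2.1.0 for alignment and StringTie 1.3.3, and the build was mm10. The deposited values were read as FPKM, an inference from the tool and from sums that differ between libraries (468326 to 579055), and no source used here gives the annotation or strand setting. The values of 2 to 4 repeated names a file were added.

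Genes at 1 FPKM or more in at least 2 of the 12 libraries were fitted as log2(FPKM + 1), which understates changes of low genes, with limma 3.58.1 in R 4.3.3. The fit had 6 group means, an intensity trend and 6 residual (prior 5.83) degrees of freedom. P-values were two-sided and Benjamini-Hochberg adjusted over 13316 genes in each of 11 comparisons, and rest on the spread between 2 libraries a group, pooled over 6 groups. On simulated data the fit found 50% (HE2) to 57% (HE1) of 2-fold changes and 91% (HE1) to 95% (HP) of 4-fold changes, with 7 to 11 false calls. The simulated noise was independent between genes, with no shift of whole libraries, and genes of low level were not changed. These shares may therefore not carry over to the real libraries. The 44 genes, the role classes and the lists were chosen with earlier results of these data known. Full library values are given for genes called with doxycycline, for the gene with the largest averaged change in each class and for the 3 largest called changes at each step. Alternatives were the pseudocount, the filter, 3 scalings, a term for libraries high in Lars2, the replicate block, the groups fitted, the trend and each library left out, and, added after seeing the data, a fit to the 7 libraries low in Lars2. Gene positions are those of RefSeq on GRCm38.p6, the assembly also called mm10.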

Additional observations from a re-analysis of the deposited data

How the results depend on the processing

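The absolute depth of the libraries is unknown, and 2 libraries a group limit the precision. The counts of 0 in HE1 and HP and for the 3 differences between populations were 0 in every alternative run. For the 4 genes called in HE2, the count was 12 after quantile normalization, 13 after median scaling or after rescaling without Lars2, Mir6236 and LOC101056014, 20 with the replicate block and 2 with only the groups compared, and 0 to 6 leaving out each library. For the 13 called in the average it was 5 with no filter, 23 with quantile normalization, 27 with median scaling or rescaling, 20 with the library class term and 31 with the replicate block, and 1 to 26 leaving out each library. The count for HE2 against HE1 in NoDox was 2 with quantile normalization, median scaling or the class term, 15 with the replicate block and 0 to 1 leaving out each library. In PlusDox it was 1 with quantile normalization, 3 with the class term, 7 with the replicate block and 0 to 2 leaving out each library. For HP against HE2 in NoDox the 4 became 16 with quantile normalization, 20 with median scaling, 12 with rescaling, 15 with the class term and 12 with the replicate block, and 1 to 7 leaving out each library. In PlusDox the 24 became 39 with quantile normalization or median scaling and 12 with only the groups compared, and 8 to 25 leaving out each library. With only the 7 libraries low in Lars2, chosen after seeing the data, most groups had 1 library, so counts of calls are not read. Calls over all genes moved as well. Those lower in HE2 went from 298 to 883 with quantile normalization, 721 with median scaling and 814 with rescaling. Those lower in the average went from 495 to 963, 925 and 1065 in the same order. Those higher in HP against HE2 went from 707 to 1328, 1394 and 956 in NoDox. In PlusDox they went from 794 to 1690, 1556 and 1417. A larger member count under these settings is thus not by itself a stronger effect. The labels tie no batch to the replicate numbers. Differences between replicates 1 and 2 correlated above 0.1 in 12 of 15 pairs of groups and at or below it in 3 (-0.1 to 0.526). The 3 pairs all included NoDox HE1, where replicate 1 was the library high in Lars2. In the other groups with a library high in Lars2 it was replicate 2. Whether replicate number or Lars2 class lies behind these correlations was not tested. The replicate block was to be taken as a pairing only where all pairs passed 0.1.

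Rescaling moved the mean level of the 44 from 4.82 to 4.95 in NoDox HE1 and from 5.24 to 5.14 in NoDox HE2. It also moved the calls of all genes, higher and lower, in HE2 against HE1 from 755 and 593 to 728 and 1050 (NoDox) and from 759 and 385 to 688 and 863 (PlusDox), in HP against HE2 in NoDox from 707 and 1418 to 956 and 1452, in the doxycycline average from 920 and 495 to 1037 and 1065, and in HP against HE2 in PlusDox from 794 and 1457 to 1417 and 1512.

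Some changes that were not called changed sign. Leaving out each library, the HE1 change ran from -0.54 to 0.14 for Cdca8 and from -0.84 to 0.080 for Kif22, and the median for HE2 against HE1 in PlusDox from -0.00058 to 0.46, each at its end without a PlusDox HE1 library. In the 7 libraries low in Lars2 it was 0.14 for Aurka, 0.25 for Cdca8 and 0.065 for Kif23 in HE1 and 0.041 for Kif22 in HP, and the median of HP minus HE1 was -0.072. Leaving out each library, the HP change ran from -0.36 to 0.055 for Bub1b, -0.24 to 0.024 for Cenpe, -0.53 to 0.23 for Kif22 and -0.28 to 0.046 for Mki67, each highest without replicate 2 of PlusDox HP. The median of HE2 minus HE1 was 0.015 with the class term and ran from -0.36 to 0.093, and that of HP minus HE1 from -0.040 to 0.41, both lowest without replicate 2 and highest without replicate 1 of PlusDox HE1. The cause was not tested.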
